A study of Danio rerio with 16 samples.

Results

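This section concerns 6 of 16 zebrafish embryo samples: 3 of mutant embryos given Pou5f1 mRNA and 3 of wild type embryos given no mRNA. The samples were taken by their titles, and the genes described are the 4752 bright named genes among 8798 named genes on the array. A gene was bright when the mean over the 6 samples was 8 or more on the log2 scale. The mutants, labelled MZ, lack maternal and zygotic Pou5f1 and carry the m793 allele of spg. The injected group, MZ_Pou5f1, received 100 pg of Pou5f1 mRNA per embryo, and the control group, WT, received 0 pg. Embryos of both groups, like every other sample of the series, were kept in cycloheximide at 15 µg/ml from 1.5 hours post fertilization and frozen at 4.7 hours. Each sample pooled 60 to 100 whole embryos, so that fewer cells of a type and less RNA per cell cannot be told apart. The groups differed in genotype and in injection at once. A WT group injected with a control mRNA was not analysed here.

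Pou5f1 is a transcription factor of the POU family, encoded in zebrafish by pou5f3 and related to mammalian Oct4. Its mRNA is loaded into the egg, and with SoxB1 factors and Nanog the protein opens and activates early genes when the embryo begins its own transcription. Mutants that lack the maternal and the zygotic protein are known for delayed epiboly, a loss of endoderm and disturbed dorsoventral patterning. Cycloheximide stops protein synthesis, so transcripts that still respond do so without new intermediate proteins. Injection of the mRNA into mutants is a rescue design, and the comparison with uninjected WT asks which transcripts still differ after it.

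The samples did not group by their labels, and this bears on every value that follows. Across 7697 bright probes, MZ_Pou5f1 replicate 3 correlated at 0.991 with WT replicate 1 and at 0.990 with WT replicate 2 (Spearman correlations over probes, a description of these samples). With the other injected samples it correlated at only 0.926 and 0.921. WT replicates 1 and 2 correlated at 0.996 with each other, and MZ_Pou5f1 replicates 1 and 2 at 0.966. The sample labelled WT replicate 3 stood apart, at 0.771 to 0.821 with the other 5 samples. It correlated at 0.920 with MZ replicate 1 and at 0.920 with MZ replicate 2 of the uninjected mutants, both also on slide 4, and shared its array with MZ replicate 2. WT replicate 2, also on slide 4 and on 1 array with MZ replicate 1, correlated with these mutants at only 0.806 and 0.820. With MZ replicate 3, on slide 3, WT replicate 3 correlated at 0.830, while WT replicates 1 and 2 correlated with that sample at 0.933 and 0.931. The injected samples correlated with MZ replicate 3 at 0.963, 0.946 and 0.934, in replicate order. The signal of WT replicate 3 on the dark corner control was 52.8, against 6.94 to 9.87 in the other 5 samples. In the uninjected mutants it was 132.7, 12.6 and 7.50, in replicate order. The median deposited signal of the E1A spike-in controls was 12697 in WT replicate 3, 29249 in MZ replicate 1 and 18104 in MZ replicate 2. It was 1023 to 6229 in the other 5 samples and 1702 in MZ replicate 3. All 3 MZ_Pou5f1 samples and WT replicate 1 were hybridised on slide 3, and WT replicates 2 and 3 on slide 4. The injected samples carried Cy5, Cy3 and Cy5 and the WT samples Cy5, Cy3 and Cy3, in replicate order.

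**Figure D1:**
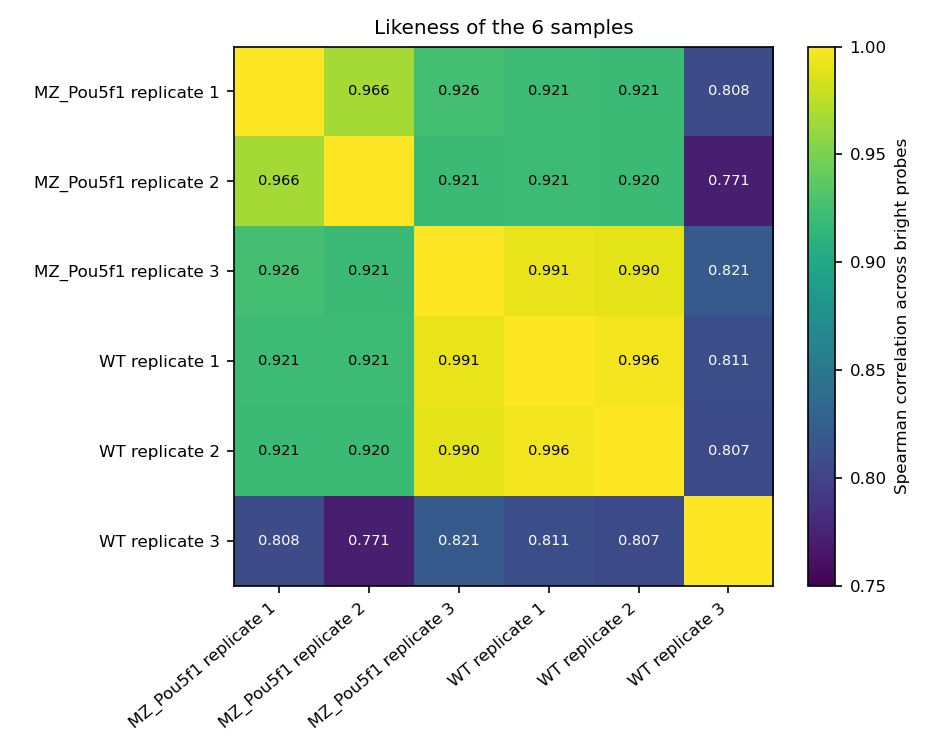
Spearman correlation of log2 intensity across 7697 bright probes for each pair of the 3 MZ_Pou5f1 and 3 WT samples. MZ_Pou5f1 replicate 3 sits with WT replicates 1 and 2 at 0.991 and 0.990, and WT replicate 3 is at 0.771 to 0.821 with all others.

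The size of these gaps can be read on the log2 scale. The median absolute difference per probe was 0.11 between WT replicates 1 and 2, and 0.15 between MZ_Pou5f1 replicate 3 and WT replicate 1. It was 0.24 between MZ_Pou5f1 replicates 1 and 2. WT replicate 3 differed from the other samples by medians of 0.73 to 0.84, and 36.8% to 42.5% of its bright probes lay more than 1 log2 unit away. Of the bright named genes, WT replicate 3 was the highest of the 6 samples in 1631 (34.3%) and the lowest in 1721 (36.2%). The WT standard deviation was larger than that of MZ_Pou5f1 for 2904 genes, with medians of 0.43 and 0.31.

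The gene altered in the mutants and replaced by injection was read first. The pou5f3 probe, in replicate order, was at 14.93, 13.79 and 14.10 (log2 intensity) in MZ_Pou5f1 and at 14.17, 14.29 and 15.01 in WT. The groups overlapped, with MZ_Pou5f1 replicate 2 lowest and WT replicate 3 highest. The fitted difference was -0.025 (SE 0.41, 95% interval -0.92 to 0.87, limma adjusted p = 0.987, n = 3 per group). The uninjected MZ samples, beside these, read 14.68, 15.15 and 15.92 on the same probe. The probe therefore did not separate the genotypes and does not check the labels. Whether the probe reads endogenous transcript, injected mRNA or both was not tested. A second pou5f3 probe gave a difference of -0.14.

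Sox2 encodes a SoxB1 partner of Pou5f1, and its probe was dim. It read 5.34, 4.83 and 6.66 in MZ_Pou5f1 and 6.75, 6.95 and 8.30 in WT. All injected samples lay below all WT samples, with a gap of 0.09 between the nearest of each group. The fitted difference was -1.64 (SE 0.70, limma adjusted p = 0.675).

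No probe of the array passed limma's threshold of an adjusted p of 0.05 between MZ_Pou5f1 and WT, 0 of 21495 or 0%. Without WT replicate 2 there were 5 such probes, all dim. At an unadjusted p under 0.05 there were 1557 probes, or 7.24%. Among the bright named genes 298 had such a p (6.27%), 165 of them higher in MZ_Pou5f1 (3.47%) and 133 lower (2.8%). The smallest adjusted p of a bright named gene was 0.599. Which genes still differed can therefore be described only by the separation of the samples, and no bright gene is called changed here. The fitted differences of the bright genes ran from -3.90 to 3.34 with a median of 0.0011, and 368 genes differed by 1 or more, 186 higher and 182 lower. For 1467 genes (30.9%) the 95% interval lay within 1 log2 unit on either side of 0, so for the remainder a difference of that size was not excluded by the interval.

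In 623 bright named genes (13.1%) the 3 MZ_Pou5f1 values all lay on one side of the 3 WT values. They were above WT in 333 genes (7.01%) and below in 290 (6.1%). Over all probes the same separation was found in 15.5%. With the deposited values of MZ_Pou5f1 replicate 2 left unmapped, the split moved to 406 higher and 161 lower. The separations were narrow: the median gap between the nearest samples of the groups was 0.09 in both directions. It reached 0.25 in 46 higher and 28 lower genes, 0.5 in 3 and 3, and 1 in 0 genes.

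MZ_Pou5f1 replicate 3 set most of these margins. It was the injected sample nearest to WT in 266 of the 333 higher genes and in 235 of the 290 lower ones. Replicates 1 and 2 alone lay above the WT range in 710 further genes and below it in 707 more. Without MZ_Pou5f1 replicate 3, 1043 genes lay wholly above WT and 997 wholly below. Without WT replicate 3 the counts were 781 and 763, and without both samples, an alternative chosen after seeing the data, 1724 and 1723. Fewer samples overlap less often even in unchanged genes, so these counts cannot be compared with the 333 and 290. The share over all probes is not given for these settings. The count with an unadjusted p under 0.05 ran from 67 without MZ_Pou5f1 replicate 2 and 70 without its replicate 1 to 681 without its replicate 3. It was 626 without WT replicate 1 and 658 without WT replicate 2.

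**Figure D2:**
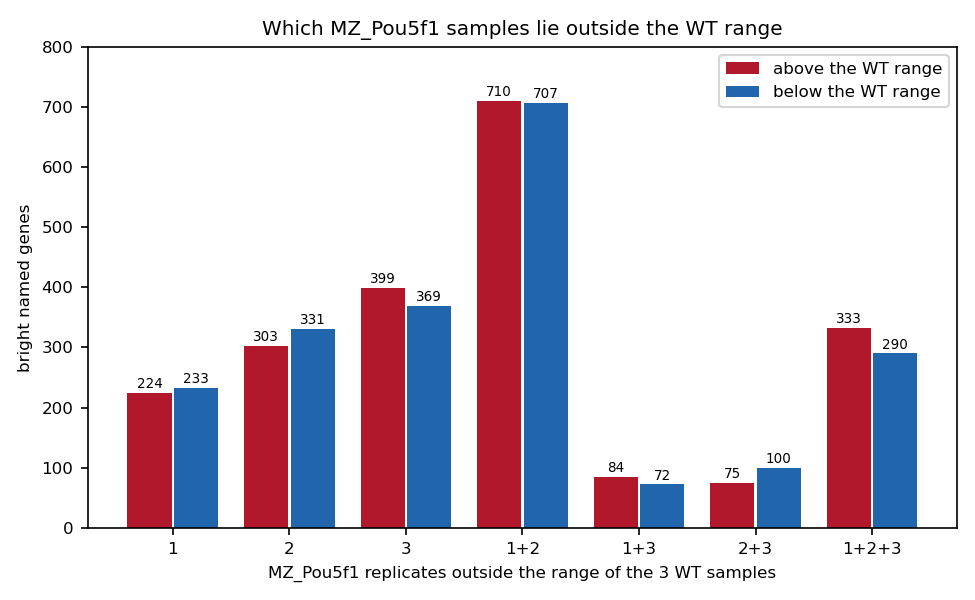
Number of bright named genes in which the named MZ_Pou5f1 replicates, and no others, lay above or below the range of the 3 WT samples. Replicates 1 and 2 together without replicate 3 form the most frequent class, 710 genes above and 707 below, against 333 and 290 for all 3 replicates.

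The 14 higher genes with the largest moderated statistic covered the egg coat, RNA handling, translation, metabolism and cell structure, and none passed the adjusted threshold. Zp3 encodes a glycoprotein of the egg coat, made in the oocyte. It read 11.02, 11.39 and 9.93 in MZ_Pou5f1 and 9.55, 9.63 and 9.16 in WT. The injected samples were all above WT, with replicate 3 only 0.30 above the highest WT sample. The fitted difference was 1.39 (SE 0.34, limma adjusted p = 0.599). The uninjected MZ samples were at 10.10, 10.32 and 10.58.

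Eif3i is a subunit of the translation initiation factor eIF3. Its probe read 14.10, 14.09 and 13.68 in MZ_Pou5f1 against 13.16, 13.35 and 13.05 in WT, a difference of 0.80 (SE 0.23, limma adjusted p = 0.648). Its gap of 0.33 was the widest of the 14 higher genes, and replicate 3 again lay nearest to WT. Zcrb1, an RNA-binding protein of the minor spliceosome, was at 10.24, 10.33 and 9.20 against 8.89, 9.03 and 8.68. For zcrb1, unlike eif3i, replicates 1 and 2 lay more than 1 log2 unit above every WT sample, and replicate 3 stayed close to the WT samples. The fitted difference of zcrb1 was 1.14 (SE 0.31, limma adjusted p = 0.648).

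Dlst, a component of the mitochondrial alpha-ketoglutarate dehydrogenase complex, read 14.12, 14.07 and 13.11 in the injected samples and 13.05, 12.81 and 12.51 in WT. Cttn, the actin-binding protein cortactin, read 11.25, 11.76 and 10.59 against 10.27, 10.54 and 9.70. In both genes a gap under 0.10 separated MZ_Pou5f1 replicate 3 from the highest WT sample, 0.06 for dlst and 0.05 for cttn. The fitted difference of dlst was 1.03 (SE 0.29), and the 95% interval of cttn ran from 0.44 to 1.96.

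Irx3b encodes a homeobox transcription factor of the Iroquois family. It read 14.05, 13.89 and 12.57 in MZ_Pou5f1 and 12.28, 12.07 and 12.52 in WT. Replicate 3 cleared WT replicate 3 by 0.05, while replicates 1 and 2 were 1.80 above WT replicates 1 and 2 on average. Apaf1, which forms the apoptosome, was at 10.66, 10.68 and 9.69 against 9.55, 9.57 and 8.66. Its WT replicate 3 was the lowest of the 6 samples and its injected replicate 3 again the lowest of its group.

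The other 7 higher genes were ubl7b, a ubiquitin-like protein, zdhhc6, a palmitoyltransferase, and sun1b, a protein of the inner nuclear membrane, with st3gal3a, a sialyltransferase, tyw3, an enzyme of tRNA modification, tbc1d22a and wdfy1. Over all 14 the fitted differences were 0.74 to 1.39, the gaps 0.01 to 0.33 and the adjusted p 0.599 to 0.670. Relative to the mean of WT replicates 1 and 2, replicates 1 and 2 of MZ_Pou5f1 were higher by a median of 1.15 and replicate 3 by a median of 0.25. The 4 other probes of 2 of these genes, st3gal3a and tbc1d22a, had the same sign.

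**Figure D3:**
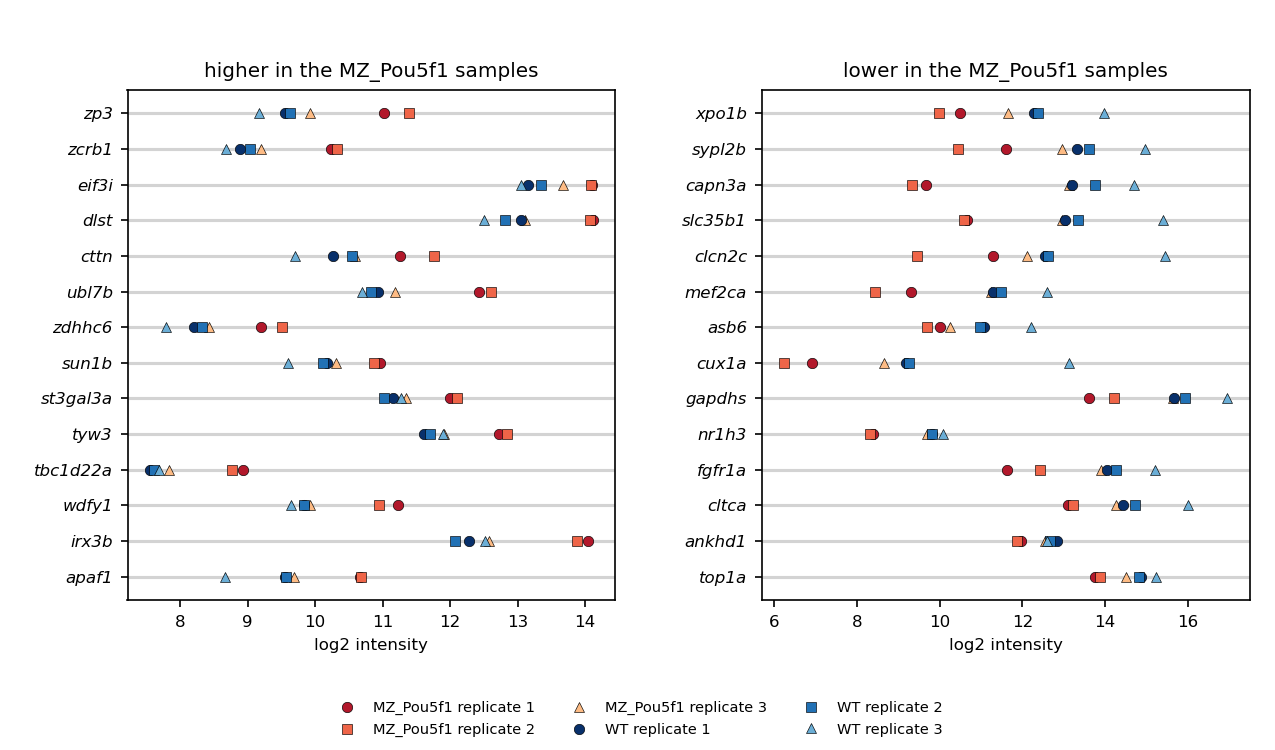
Log2 intensity of the 14 higher and 14 lower bright genes with the largest moderated statistic among those whose groups do not overlap, one point per sample of MZ_Pou5f1 and WT. In all 28 genes MZ_Pou5f1 replicate 3 is the injected sample nearest to WT.

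The 14 lower genes had differences from -3.44 to -0.64, and none passed the adjusted threshold. Xpo1b encodes a nuclear export receptor. In linear intensity its probe read 1448, 1022 and 3202 in MZ_Pou5f1 and 4945, 5301 and 16171 in WT. The groups were 0.63 apart on the log2 scale, and WT replicate 3 was the highest of the 6 samples by a wide margin. The fitted difference was -2.16 (SE 0.55, limma adjusted p = 0.599), and the uninjected MZ samples read 9.36, 10.61 and 10.49 on the log2 scale.

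Capn3a, a calpain protease known from muscle, had the most negative difference of the 14, -3.44 (SE 0.89, limma adjusted p = 0.599). Its values were 9.68, 9.34 and 13.13 in MZ_Pou5f1 and 13.20, 13.76 and 14.70 in WT. Replicates 1 and 2 were thus far below WT and replicate 3 was 0.07 below the lowest WT sample. Asb6, an ankyrin repeat protein with a SOCS box, read 10.01, 9.70 and 10.25 against 11.08, 10.99 and 12.20. Here all 3 injected samples lay together, and the gap of 0.74 was the widest among all bright named genes. The fitted difference of asb6 was -1.38 (SE 0.41, limma adjusted p = 0.651).

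Several transcription factors were among the lower genes. Mef2ca, a MADS-box factor of muscle and neural crest, read 9.31, 8.44 and 11.25 against 11.29, 11.47 and 12.59. Cux1a, a homeobox factor, read 6.92, 6.24 and 8.65 against 9.19, 9.27 and 13.12. For cux1a WT replicate 3 was far above the other WT samples, and the difference of -3.34 (SE 1.01) became -2.02 without it. Nr1h3, the nuclear receptor known as liver X receptor alpha, read 8.38, 8.31 and 9.70 against 9.82, 9.81 and 10.09, a difference with a 95% interval from -1.99 to -0.41. Its WT samples agreed closely, with an SD of 0.16, and its injected samples had an SD of 0.78.

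Fgfr1a is a receptor of fibroblast growth factors. It read 11.62, 12.44 and 13.89 in MZ_Pou5f1 and 14.05, 14.27 and 15.21 in WT, a difference of -1.84 (SE 0.58, limma adjusted p = 0.670). The groups were 0.16 apart, with MZ_Pou5f1 replicate 3 next to WT replicate 1. The other lower genes were sypl2b, slc35b1, the chloride channel clcn2c, the glycolytic enzyme gapdhs, the clathrin heavy chain cltca, ankhd1 and the topoisomerase top1a. Over the 14 lower genes, replicates 1 and 2 of MZ_Pou5f1 were below WT replicates 1 and 2 by a median difference of -2.10 and replicate 3 by -0.33. WT replicate 3 was the highest WT sample in 13 of the 14.

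Other probes of the lower genes mostly had the opposite sign. Of 10 other probes of 7 lower genes, 2 had a negative difference. Only those of top1a and cltca and 1 of ankhd1 were bright, and these were positive. The rest were dim, with means down to 3.21 for mef2ca, and both negative ones, of mef2ca and gapdhs, were among them. The first probe of top1a read 13.76, 13.88 and 14.50 in MZ_Pou5f1 and 14.87, 14.83 and 15.24 in WT, while its second probe, at a mean of 14.20, gave a difference of 0.61. The second probe of cltca gave 1.62 at a mean of 8.98, where the first gave -1.68 (SE 0.54). Those of xpo1b and asb6 gave 0.41 and 0.72 and were dim, at means of 5.20 and 5.46. The bright second probe of ankhd1 gave 0.35, where the first gave -0.64. For top1a, cltca and ankhd1 the sign of the difference depended on which bright probe was read. For cltca the groups were without overlap on both bright probes, wholly below WT on the first and wholly above on the second. For xpo1b and asb6 the opposite sign rested on a dim probe.

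Over all bright named genes the other probes of higher and of lower genes behaved differently. Of 92 other bright probes of the non-overlapping higher genes, 75 (81.5%) had the sign of the first probe, against 75.4% for all genes with a positive difference. Of 95 other bright probes of the non-overlapping lower genes, 45 (47.4%) did, against 49.7% for all genes with a negative one. Full separation of the groups in the same direction recurred in 23 of the 92 (25%) and 20 of the 95 (21.1%), against 12.4% and 7.58%.

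Some further genes with a wide separation were picked after their values were seen and are given as a description only. On the lower side they are not those with the widest gaps. Nr6a1a, an orphan nuclear receptor, read 9.32, 9.63 and 9.32 in MZ_Pou5f1 and 8.64, 8.59 and 6.63 in WT. Wbp1la read 10.40, 9.92 and 10.55 against 9.26, 8.90 and 8.82, and txnl1, a thioredoxin-like protein, 9.11, 9.41 and 8.80 against 8.24, 8.15 and 7.43. In these 3 genes the injected samples stood together, 0.67, 0.66 and 0.56 above the highest WT sample. Drc4, a subunit of the axonemal dynein regulatory complex, lay on the other side, at 9.05, 9.28 and 9.18 against 9.83, 9.68 and 9.78. It had little scatter in both groups and a difference of -0.65 (SE 0.22, limma adjusted p = 0.670). Taok3a, a protein kinase, read 10.63, 10.53 and 12.11 against 12.64, 12.51 and 12.52.

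Early zygotic genes are the first to be transcribed by the embryo, and many are known targets of Pou5f1. All 28 bright members of the list had a negative difference between MZ_Pou5f1 and WT, with a median of -0.94 beside 0.0011 for all bright named genes. Of these 28, 0 passed limma's adjusted threshold, 1 had an unadjusted p under 0.05, and 6 lay wholly below WT, beside 6.1% of all bright genes. Of all 61 members on the array 58 were negative, with a median of -0.88. The size of the median over the 28 genes rested largely on 1 sample of each group. It stayed negative but small without either, and was -0.29 with slide as a fixed block. WT replicate 3 was the highest of the 6 samples in 25 of the 28 genes, and MZ_Pou5f1 replicate 2 the lowest in 21. Brightness was a mean over all 6 samples, so some members passed only through WT replicate 3. For those members the filter favours a high rank of that sample and a negative difference. Klf2b, for example, read 8.58, 7.15 and 7.42 in MZ_Pou5f1 and 7.43, 7.07 and 13.54 in WT. Sp5l, counted among the 6 genes wholly below WT, was another such member. Without WT replicate 3 the median was -0.13, and without MZ_Pou5f1 replicate 2 it was -0.14. It was -1.52 without MZ_Pou5f1 replicate 1 and -1.57 without WT replicate 2.

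Against the mean of WT replicates 1 and 2, the list's median was 0.44 in MZ_Pou5f1 replicate 1, -1.06 in replicate 2 and -0.12 in replicate 3. It was 2.46 in WT replicate 3. The same measure in the uninjected mutants, which were set against the same WT samples, was 2.68, 2.36 and 1.31. On this list WT replicate 3 therefore lay at the level of MZ replicates 1 and 2, and the injected samples lay on both sides of WT replicates 1 and 2.

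**Figure D4:**
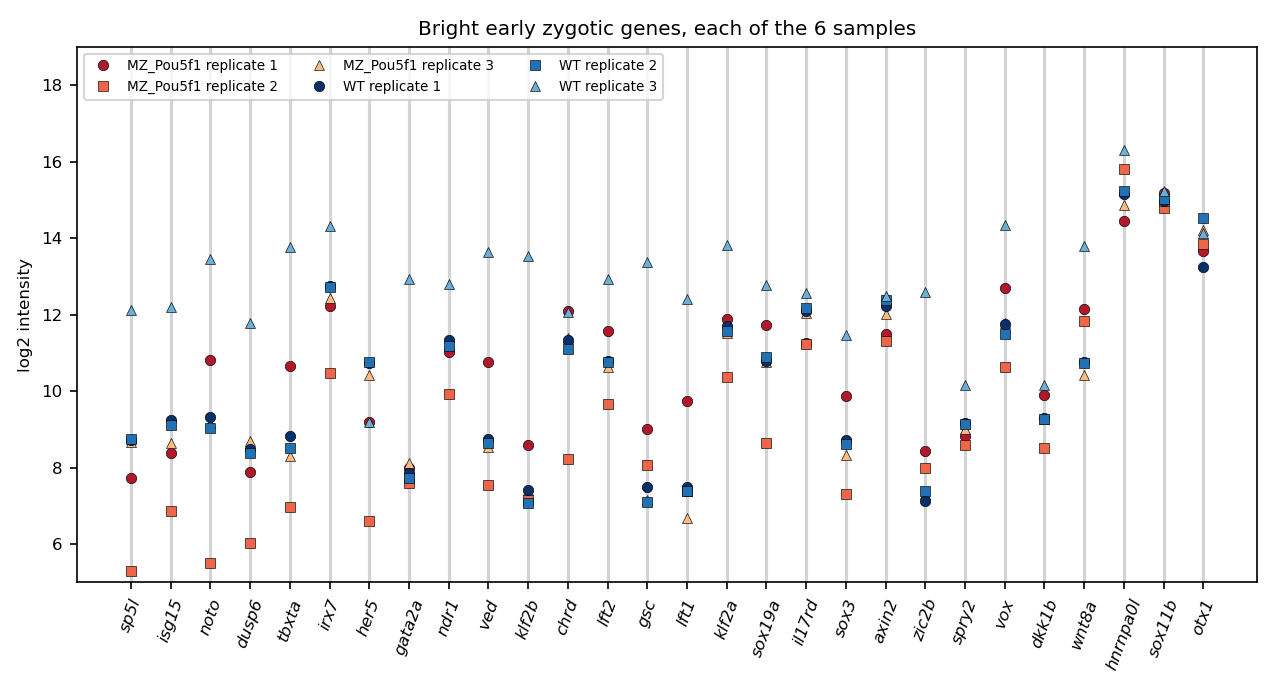
Log2 intensity of the 28 bright early zygotic genes in each MZ_Pou5f1 and WT sample. WT replicate 3 is highest in 25 of the 28 genes and MZ_Pou5f1 replicate 2 lowest in 21, with the other 4 samples between them in most genes.

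Individual members showed the pattern. Ndr1, a Nodal ligand that induces mesendoderm, read 11.02, 9.92 and 11.24 in MZ_Pou5f1 and 11.34, 11.17 and 12.80 in WT, a difference of -1.22 (SE 0.62, limma adjusted p = 0.690). Noto, a homeobox factor of the notochord, read 10.82, 5.51 and 9.17 against 9.32, 9.04 and 13.46. Its injected replicate 1 was above and its injected replicate 2 far below WT replicates 1 and 2, and the groups overlapped. Lft2, a secreted Nodal antagonist, read 11.58, 9.66 and 10.64 against 10.80, 10.77 and 12.93.

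The list of pluripotency and blastula regulators, which includes pou5f3 itself, varied in the same way. All 7 bright pluripotency and blastula regulators were negative, with a median of -0.83. Klf2b was among them, and it was bright on average only through WT replicate 3. Of these 7, 0 lay wholly on one side of WT, beside 13.1% of all bright genes, and 0 passed the adjusted threshold. Sox19a, a SoxB1 factor, read 11.73, 8.64 and 10.75 against 10.79, 10.90 and 12.78. Sox3, another SoxB1 factor, read 9.87, 7.31 and 8.34 against 8.72, 8.62 and 11.48. In both genes replicate 2 was the lowest and WT replicate 3 the highest of the 6 samples. Without MZ_Pou5f1 replicate 2 the list's median turned to 0.30, and without WT replicate 3 it was -0.09.

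Sox1b was the single one of the 4 bright SoxB genes without overlap, beside 13.1% of all bright genes. It read 7.87, 8.04 and 9.57 against 9.90, 10.32 and 12.71, and the uninjected MZ samples read 3.40, 6.58 and 8.08. Its difference was -2.20 (SE 1.02, limma adjusted p = 0.685). The median of the 4 genes was -0.84, and 0.31 without MZ_Pou5f1 replicate 2. It was -0.18 without WT replicate 3, -1.43 without WT replicate 2 and -1.62 without MZ_Pou5f1 replicate 1.

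Fibroblast growth factors signal through their receptors to pattern the mesoderm and the dorsal side of the embryo. All 7 bright members of the FGF pathway were negative, with a median of -0.84, or -0.66 without WT replicate 3 and -0.46 without MZ_Pou5f1 replicate 2. Of these, dusp6 was bright on average only through WT replicate 3, at 7.88, 6.04 and 8.69 against 8.48, 8.37 and 11.79. For such a member the filter favours a negative difference. Besides the receptor fgfr1a, 2 feedback inhibitors lay wholly below WT, beside 6.1% of all bright genes. Il17rd, also known as Sef, read 11.27, 11.24 and 12.03 against 12.10, 12.18 and 12.56, a difference of -0.84 (SE 0.33, limma adjusted p = 0.670). Spry2, a Sprouty protein, read 8.82, 8.59 and 9.01 against 9.16, 9.13 and 10.17, a difference of -0.74 (SE 0.40). Relative to WT replicates 1 and 2 the list's median was -0.54, -0.90 and -0.09 in the injected samples, so replicate 3 was close to WT here too. Of the other probes of il17rd, 1 was negative, at -0.93, and lay wholly below WT. The other was positive, at 0.86, and lay wholly above WT.

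The Wnt pathway had 11 of 14 bright members negative and a median of -0.44, which was -0.14 without WT replicate 3 and -0.27 without MZ_Pou5f1 replicate 2. It was -0.76 without WT replicate 1 and -0.74 without WT replicate 2. The receptor fzd8b read 8.34, 7.52 and 9.52 against 9.78, 9.54 and 11.39, with a gap of 0.02. Axin2, a target and inhibitor of the pathway, read 11.49, 11.32 and 12.01 against 12.22, 12.40 and 12.48, a difference of -0.80 (SE 0.37). A second bright axin2 probe gave -0.12 (SE 0.68), and there the groups overlapped. Tcf7l1a, a transcriptional repressor of Wnt targets, lay on the other side, at 11.11, 10.86 and 10.53 against 10.13, 10.19 and 9.28. On the first probe all 3 genes were separated without overlap, and with limma adjusted p of 0.670 to 0.685 none of them passed. Dact2 and sp5l also lay wholly below WT, as did 6.1% of all bright genes, and 7.01% lay wholly above. Sp5l read 7.72, 5.28 and 8.68 against 8.71, 8.75 and 12.13, and was bright on average only through WT replicate 3. For such a member the filter favours a negative difference.

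Ventral, dorsal and mesendodermal genes include the genes that pattern the blastula margin. On the brightest probe of each gene, they showed 0 members without overlap among the bright ones. Of all bright genes 13.1% were without overlap, and these lists are too short to be read against that share. A second bright probe of smad2, in the mesendoderm and Nodal list, lay wholly above WT with a difference of 1.27. The ventral and BMP list had a median of -0.55 over 10 genes, the dorsal organizer list -0.80 over 9 and the mesendoderm and Nodal list -0.46 over 9. Gata2a and smad7 of the BMP list, gsc of the organizer list and lft1 of the Nodal list were bright on average only through WT replicate 3. For such members the filter favours a negative difference. Id3, a target of BMP signalling, read 11.35, 11.24 and 11.29 in MZ_Pou5f1 and 11.30, 11.10 and 12.85 in WT. Its 3 injected samples and WT replicates 1 and 2 lay close together, and WT replicate 3 alone was high. Bambia, a BMP pseudoreceptor, read 10.89, 9.97 and 10.67 against 10.75, 10.75 and 14.10. Leaving out WT replicate 3 took the 3 medians to -0.047, -0.37 and -0.090. Leaving out MZ_Pou5f1 replicate 2 turned all 3 positive, to 0.27, 0.011 and 0.13. Without WT replicate 1 they were -0.93, -1.01 and -0.63, and without WT replicate 2 the BMP median was -1.11. Without MZ_Pou5f1 replicate 1 or 3 the BMP median was -0.85 or -0.89.

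Neural and head ectoderm genes had 9 of 11 bright members negative and a median of -0.79, which was -0.38 without WT replicate 3 and -0.14 without MZ_Pou5f1 replicate 2. Zic2b, among the negative members, was bright on average only through WT replicate 3. Irx1a, an Iroquois factor, read 8.76, 8.31 and 8.94 against 9.18, 9.29 and 9.29. The groups were separated by 0.24 and the WT samples were close together. Irx7 was also wholly below WT, beside 6.1% of all bright genes. Rx3, an eye field factor, read 9.94, 7.40 and 11.47 against 11.41, 11.35 and 11.12 and overlapped through replicate 3.

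The enveloping layer and the yolk syncytial layer were read next. The enveloping layer list had a median of -0.35 over 6 bright genes, and the yolk syncytial list -0.83 over 3. Without WT replicate 3 the yolk syncytial median turned to 0.43 and the enveloping layer median was -0.048. The yolk syncytial median was -0.086 without MZ_Pou5f1 replicate 2, 0.087 with slide as a fixed block, -1.49 without WT replicate 1 and -1.54 without WT replicate 2. Mxtx2, the homeobox factor that specifies the yolk syncytial layer, read 11.81, 10.36 and 11.44 against 11.20, 11.16 and 13.96. Apoeb, an apolipoprotein of that layer, was at 8.03, 6.12 and 7.15 against 7.37, 6.54 and 14.72. WT replicate 3 was far above the other 5 samples, and the uninjected MZ samples read 14.59, 14.82 and 13.30. Apoeb was bright on average only through WT replicate 3. Germ line genes had a median of -0.07 over 12 bright members. On the brightest probe 0 of them were without overlap, beside 13.1% of all bright genes. The other probes of piwil1, both bright, lay wholly below WT, with differences of -0.68 and -0.46.

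Maternal transcripts lay slightly on the higher side. Of 30 bright egg and oocyte genes 19 were positive, with a median of 0.27, and 4 lay wholly above and 2 wholly below WT, beside 7.01% and 6.1% of all bright genes. Zp3f.1, a second egg coat gene, read 14.76, 15.00 and 13.04 against 12.63, 12.80 and 11.68, a difference of 1.92 (SE 0.66, limma adjusted p = 0.670). Its other bright probe had a difference of 2.13 and was also without overlap. Near-identical copies of egg coat genes may share signal on these probes. Without WT replicate 3 the list's median was 0.09.

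The medians of the 4 machinery lists were small. The median was 0.22 over 59 ribosomal protein genes, 0.23 over 53 genes of oxidative phosphorylation, 0.20 over 37 proteasome subunits and 0.12 over 43 translation factors, and 0 genes of these lists passed the adjusted threshold. Of the ribosomal protein genes, 40 were positive, 7 lay wholly above WT (7.01% of all bright genes did) and 1 wholly below (6.1% did). In oxidative phosphorylation 3 genes lay wholly above and 1 wholly below, and in translation factors also 3 and 1. Of the proteasome subunits 0 lay wholly on either side. Of all bright genes 2382 of 4752 were positive. Without WT replicate 1 the ribosomal median was 0.036 and that of oxidative phosphorylation 0.10, and without WT replicate 2 they were 0.056 and -0.025. The median of the translation factors was 0.057 without WT replicate 1, 0.025 without WT replicate 2 and -0.0089 with slide as a fixed block. Without MZ_Pou5f1 replicate 1 the ribosomal median was 0.14 and that of oxidative phosphorylation 0.13. That of the proteasome was 0.36 without MZ_Pou5f1 replicate 3 and 0.12 without its replicate 2. Rps10 read 10.46, 10.37 and 9.24 against 8.99, 8.90 and 9.06, a difference of 1.03 (SE 0.37). Eif3ha, another subunit of eIF3, read 12.07, 11.93 and 11.23 against 10.93, 10.88 and 9.64, a difference of 1.25 (SE 0.42). Without the rank mapping of MZ_Pou5f1 replicate 2 the median of all bright genes moved from 0.0011 to 0.23. Relative to that median the ribosomal list was then at 0.20, oxidative phosphorylation at 0.22, the proteasome at 0.20 and translation factors at 0.096.

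Cell cycle genes had a median of 0.03 over 31 bright members. The p53, stress and immediate early list had a median of -0.49 over 20, with 14 negative, and one of -0.28 without MZ_Pou5f1 replicate 2. Atf4a, a transcription factor of the integrated stress response, read 12.34, 12.83 and 14.88 against 14.71, 14.98 and 15.56, a difference of -1.66 (SE 0.61, limma adjusted p = 0.670). Its injected replicate 3 fell within the WT range. Hspa5, the chaperone BiP of the endoplasmic reticulum, was wholly below WT, at 15.79, 16.05 and 15.92 against 16.22, 16.82 and 16.50, a difference of -0.51 (SE 0.25). With gadd45aa and jun, 3 members of this list lay wholly below WT, beside 6.1% of all bright genes. On the other side xbp1 alone lay wholly above, with a difference of 0.31, beside 7.01% of all bright genes. Of 41 hox and caudal genes on the array 0 were bright.

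**Figure D5:**
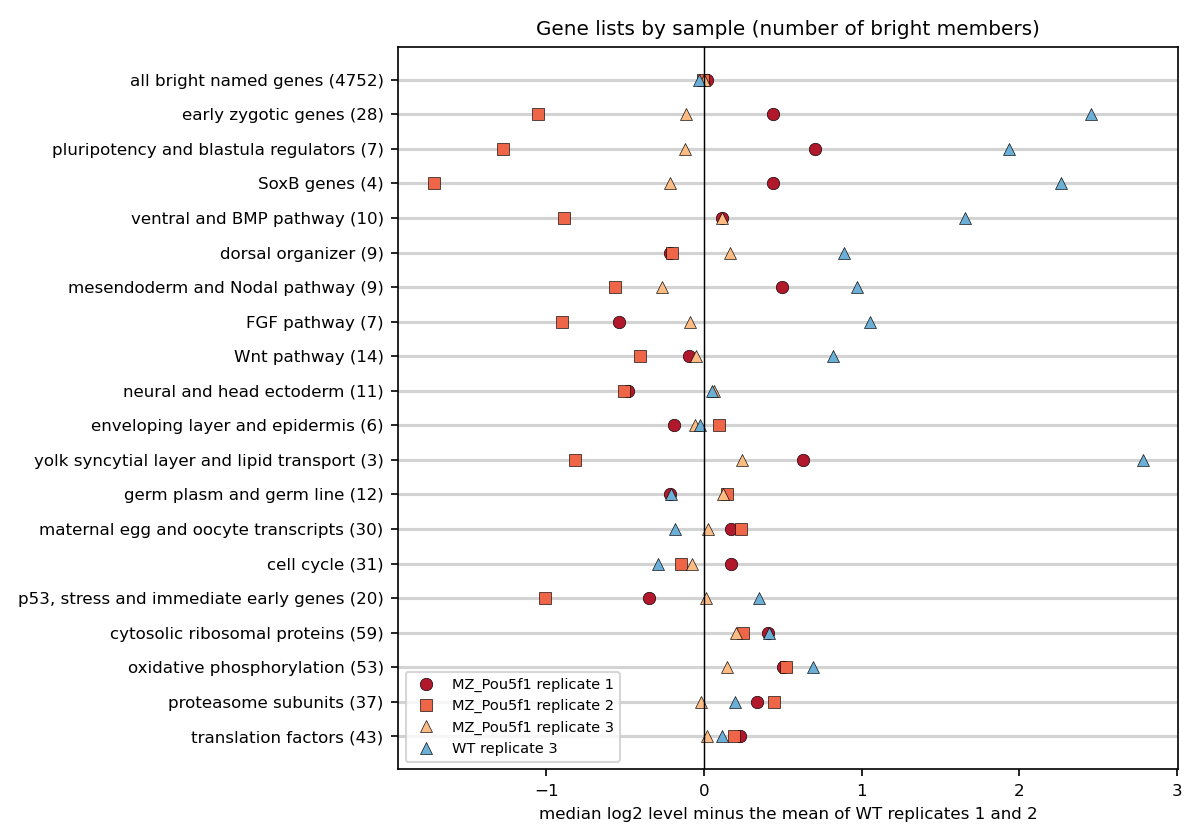
Median log2 intensity of the bright members of each gene list, relative to the mean of WT replicates 1 and 2, in the 3 MZ_Pou5f1 samples and WT replicate 3. For early zygotic genes the points are 0.44, -1.06 and -0.12 in MZ_Pou5f1 and 2.46 in WT replicate 3.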

How the data were processed

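RNA of whole embryos from 16 samples was hybridised to Agilent arrays with 2 colours, each sample in 1 dye channel. WT replicate 1 shared its array with MZ replicate 3, and WT replicates 2 and 3 shared theirs with MZ replicates 1 and 2. Every other sample, those of MZ_Pou5f1 included, was the only sample of the series on its array. The deposited values are intensity per probe, linear as judged from their range. The submitters' processing notes name Agilent Feature Extraction, and no background correction is stated in the sources used here. The authors, per the labels' own account of the design, separated both channels, applied quantile normalisation, and treated them as samples of their own from biological triplicates. In 14 columns the sorted deposited values were identical. The remaining 2, one of them MZ_Pou5f1 replicate 2, were brought onto that distribution by rank before log2 was taken of the deposited intensity. An array has no read depth, so precision is limited by how many arrays there are.

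Of 21555 features 60 controls were left out. Of the probes, 12887 had 1 gene symbol in the annotation, 0 had several and 8608 had none. Clone names were not counted as gene names, and each gene was read from its brightest probe over the 6 samples. One limma fit held all 16 samples, with group means and dye as fixed terms and the array as a random block with a correlation of 0.0429. Differences are MZ_Pou5f1 minus WT after adjustment for dye, so they depart slightly from differences of the printed values. Each test was two-sided, and p-values were adjusted by Benjamini-Hochberg across 21495 probes. Intervals are unadjusted. SE, intervals and p-values rest on the spread within all groups of the fit, not only within MZ_Pou5f1 and WT. They can therefore depart from the scatter of the printed values. For wbp1la the SDs were 0.33 in MZ_Pou5f1 and 0.24 in WT, while the SE was 0.84.

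The text names pou5f3 and sox2, the 14 genes in each direction with the largest absolute moderated statistic among bright genes separated without overlap, and up to 3 bright members of each list by that statistic. Any further gene was picked with its values in view. The members, gene lists and tests were chosen with earlier results of these data known. Replicate numbers were not taken as pairs. Deviations from the group means correlated at -0.27, 0.10 and -0.12 between samples of the same number. Each MZ_Pou5f1 replicate had nearly the same correlation with WT replicates 1 and 2, and one of opposite sign with WT replicate 3. These correlations therefore cannot tell whether the numbers pair the samples. Alternatives covered the mapping, dye, blocks, samples in the fit, small values, brightness, probe choice, threshold and each replicate left out. The tools were limma 3.58.1 in R 4.3.3, with version 1.17.8 of data.table, and matplotlib 3.10.9 under Python 3.11.15 for the figures.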

Additional observations from a re-analysis of the deposited data

How the results depend on the processing

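No probe passed the adjusted threshold in most settings. At an adjusted p under 0.1 there were 4 (3 without a gene name and pyroxd2, all dim), and with 1 sample left out at a time 0 to 5, the 5 without WT replicate 2 (4 unnamed and pyroxd2, which encodes an oxidoreductase). The 298 bright genes with an unadjusted p under 0.05 became 104 with slide as a fixed block, 180 with slide as a random block, 137 in a fit of the 6 samples alone and 757 without both WT replicate 3 and MZ_Pou5f1 replicate 3, an alternative chosen after seeing the data. With 1 sample left out at a time they ranged from 67 to 681. Whether the replicate numbers pair the samples could not be told. With the replicate block the count was 187 and 0 probes were called. Genes without overlap were 408 to 1043 higher and 362 to 997 lower with 1 sample left out, 1724 and 1723 without both samples, since fewer samples overlap less often, and 161 lower without the mapping.

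Of 285 list medians under alternatives 271 moved by less than the spread between replicates. In most lists that spread was larger than the median itself, so even a change of sign could count as no move. It was 1.45 beside a median of -0.94 for early zygotic genes, and 1.67 beside -0.83 for the yolk syncytial list. The count of 271 is therefore no measure of how stable the medians were. Without the mapping the median of all bright genes moved to 0.23, and the medians were -0.14 for the enveloping layer, 0.18 for the germ line, 0.29 for the cell cycle and 0.43 for the proteasome. Relative to that shift they were -0.37, -0.042, 0.067 and 0.20. With slide as a fixed block the enveloping layer was at 0.024 and the cell cycle at -0.20. Without both samples these were 0.043 and -0.18, and the proteasome 0.40. With 1 sample left out, the pluripotency list ranged from -1.30 to 0.30, SoxB genes from -1.62 to 0.31, the BMP list from -1.11 to 0.27 and the enveloping layer from -0.50 to -0.048.

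Of 1185 differences of named genes under alternatives 28 changed sign. These were 0.17 for pou5f3 and 0.22 for fabp3 (a fatty acid-binding protein) without the mapping, both below the median of all bright genes there, and 0.031 for fabp3 without the dye term and in the 6 samples alone. With slide as a fixed block mxtx2 was at 0.087, id3 at 0.25 and fabp3 at 0.37, and as a random block fabp3 was at 0.11. Without both samples pou5f3 was at 0.13, tdrd7a at -0.013, id3 at 0.12, fabp3 at 0.59 and apoeb at 0.17. With 1 sample left out the differences ranged from -0.43 to 0.62 for pou5f3, -0.69 to 0.30 for cldn7b, -1.92 to 0.13 for klf2a, -1.54 to 0.070 for mxtx2, -0.86 to 0.11 for id3, -1.63 to 0.80 for sox19a, -3.20 to 0.14 for noto, -1.60 to 0.47 for sox3, -3.90 to 0.48 for apoeb, -1.52 to 0.52 for smad7 and -0.42 to 0.43 for fabp3. Of the 28 genes with the largest statistic, 0 changed sign and 0 passed the threshold in 15 settings, with adjusted p from 0.105 up. Their choice by non-overlap favours a fixed sign. The cause of the other moves was not tested.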

Other observations

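Bright probes without a gene name separated the groups about as often as named genes did. Of 1161 such probes, 151 (13%) had groups without overlap, 72 higher (6.2%) and 79 lower (6.8%), and 0 passed limma's adjusted threshold.

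Isg15, an interferon-stimulated ubiquitin-like gene, lay wholly below WT. It read 8.38, 6.88 and 8.65 in MZ_Pou5f1 against 9.26, 9.11 and 12.20 in WT, and 11.50, 11.10 and 8.56 in the uninjected MZ samples. Rnasekb read 10.68, 10.87 and 10.11 in MZ_Pou5f1 and 9.71, 9.70 and 5.51 in WT, with uninjected MZ samples at 5.31, 7.24 and 10.44. In both genes WT replicate 3 was nearer to MZ replicates 1 and 2 than to WT replicates 1 and 2. Both genes were picked with their values in view, and the difference between WT replicate 3 and its group was not tested.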
